A study of Rattus norvegicus with 9 samples.

Results

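The genes described here are 9 of the 14 genes used here from the study's list of genes related to epilepsy: Gabrd, Kcna1, Kcna2, Scn8a, Cacng2, Atp2a2, Gpr56, Ndufa2 and Tgif1. The other 5 (Scn4b, Itpr1, Gfap, Npc2 and Pcdh19) were left out by rule, and the 9 were taken by the transcript identifier that the study pairs with each gene. They are 9 of 31786 transcripts counted, and all 9 were among the 22283 transcripts that passed the filter on low counts. The study chose its list on the difference between PILO and CTRL in these same libraries (an unadjusted p below 0.01), so that difference is given below as a description of the genes and supports nothing. In a new run of the edgeR exact test on these libraries, whose p-values need not equal those behind the choice, Atp2a2 lay nearest to that threshold on the inner side (unadjusted p of 0.00616) and Gabrd alone lay outside it (0.0166). That run took the variability of each gene from all 9 libraries, PILO + KD included. The study's own p for Gabrd lay inside the threshold. On the 6 libraries of PILO and CTRL alone, edgeR's quasi-likelihood test gave Gabrd an unadjusted p of 0.00045.

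The dorsal hippocampus of 9 male Wistar rats gave 9 mRNA libraries, 1 animal each and 3 in each group. CTRL rats received methyl scopolamine (1 mg/kg) and saline and ate standard chow. PILO rats received methyl scopolamine and then, after 30 min, pilocarpine (340 mg/kg, with a further 175 mg/kg where no status epilepticus had begun within 45 min), and also ate standard chow. PILO + KD rats received the same injections and ate a ketogenic diet, which is rich in fat and poor in carbohydrate, from the end of status epilepticus. Pilocarpine is a muscarinic agonist that brings on prolonged seizures, which were stopped with diazepam (8 mg/kg) after 60 min, and rats that survive it later have spontaneous seizures. Rats weighed 300 to 350 g at the start and were followed for 84 days. No group held rats fed the ketogenic diet without pilocarpine, so the effect of the diet in healthy animals could not be measured.

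Most of these genes set how easily a neuron fires. Voltage-gated sodium channels start the action potential, voltage-gated potassium channels end it and hold the resting cell below threshold, and GABA-A receptors outside the synapse let chloride through steadily and so damp the cell. The surface number of AMPA receptors sets the strength of the excitatory input, and pumps in the endoplasmic reticulum clear the calcium that enters during firing. Inherited or induced loss of several of these channels gives seizures in humans or mice, which is why they appear together in lists of epilepsy genes.

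Totals were 9904067 to 24092617 counts per library, and 4 libraries need to be named before the values. PILO replicate 3 stood apart from the other 8: its mean Spearman correlation with them was 0.940 against 0.970 to 0.981 for the others, and its 10 most abundant transcripts took 26.0% of the counts against 12.1% to 19.3%. On the first principal component it lay at 111, and CTRL replicate 3, where the 10 most abundant transcripts took the smallest share, lay at the other end at −49.6. In PILO + KD replicate 2, Gfap, the intermediate filament of astrocytes, stood at 834 CPM (counts scaled to library size), near the 526 to 770 CPM of CTRL, whereas PILO + KD replicates 1 and 3 had 2632 and 1786 CPM and PILO libraries 1543 to 2853 CPM. PILO + KD replicate 3 was the shallowest library and the only one from another flow cell. Other markers of cell types could not be matched to the transcript identifiers. In bulk tissue, fewer cells of a kind and less RNA per cell cannot be told apart. All levels below are CPM after scaling by the trimmed mean of M-values, and levels of different genes are not compared, since transcript lengths were not at hand.

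Promoter sequence was available for 7 of the 9 genes in the RefSeq table of the GRCr8 assembly, where Gpr56 is listed under its current name Adgrg1. Its windows span 250 bases before to 50 bases after the start of a gene. The sequences of 3 genes whose levels moved closely together in these libraries are shown, without the last 50 bases, to set GC-rich promoters beside a promoter of another make-up. Capitals mark matches to the GC box GGGCGG, the CCAAT box or the TATA motif TATAAA, and a match on the opposite strand reads as the reverse complement.
Scn8a (window chr7:133860977-133861276, plus strand): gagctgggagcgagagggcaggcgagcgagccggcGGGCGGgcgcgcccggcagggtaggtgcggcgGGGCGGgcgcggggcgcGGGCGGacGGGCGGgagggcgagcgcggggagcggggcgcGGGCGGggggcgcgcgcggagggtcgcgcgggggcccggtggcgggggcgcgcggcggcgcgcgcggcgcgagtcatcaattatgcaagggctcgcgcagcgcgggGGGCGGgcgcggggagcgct
Atp2a2 (window chr12:39733269-39733568, plus strand): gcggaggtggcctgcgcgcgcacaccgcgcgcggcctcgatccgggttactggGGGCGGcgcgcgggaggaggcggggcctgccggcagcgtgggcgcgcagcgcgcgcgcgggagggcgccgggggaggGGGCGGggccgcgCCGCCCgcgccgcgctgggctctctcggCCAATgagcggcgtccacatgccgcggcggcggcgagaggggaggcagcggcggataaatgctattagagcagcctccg
Cacng2 (window chr7:111577708-111578007, minus strand): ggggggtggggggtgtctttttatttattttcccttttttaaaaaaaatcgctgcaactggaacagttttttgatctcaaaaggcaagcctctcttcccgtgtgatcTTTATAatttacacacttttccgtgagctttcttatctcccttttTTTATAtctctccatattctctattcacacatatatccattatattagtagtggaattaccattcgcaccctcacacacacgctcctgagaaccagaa

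The Scn8a window was 84.7% GC with 60 CpG dinucleotides and 7 GC boxes, of which 6 lie in the bases shown. The Atp2a2 window was 79.0% GC with 52 CpG dinucleotides, 3 GC boxes and 1 CCAAT box. The Cacng2 window was 39.0% GC with 7 CpG dinucleotides, no GC box and 3 TATA motifs, 2 of them in the bases shown. Over all 33469 windows in the table the median was 51.7% GC and 7 CpG dinucleotides. Gabrd (73.7% GC) and Kcna2 (73.3%) lay on the GC-rich side with Scn8a and Atp2a2, and Gpr56 (61.0%) and Ndufa2 (54.0%) lay nearer to the median. The GC box occurred in 5 of the 7 windows (Gabrd, Kcna2, Scn8a, Atp2a2 and Ndufa2) and in 33.1% of all windows. CCAAT occurred in 3 of 7 (37.5% of all), and TATAAA in 2 of 7 (14.2% of all), namely Cacng2 and Ndufa2. The cyclic AMP response element TGACGTCA (1.83% of all), the E-box CACGTG (6.42%) and TTCAGCACC (0.36%), the left part of the element bound by the neuronal repressor REST, matched in none of the 7. GGACAGC, the right part of that element, matched in Kcna2 alone and in 6.59% of all windows. No string searched contains another, and a match is a run of letters, not a measured binding site.

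Gabrd encodes the delta subunit of GABA-A receptors outside the synapse, which carry tonic inhibition in granule cells of the dentate gyrus. It (ENSRNOT00000022246) stood at 25.4, 28.3 and 29.4 CPM in CTRL replicates 1 to 3, at 15.7, 14.4 and 12.7 CPM in PILO, and at 5.75, 25.5 and 19.2 CPM in PILO + KD. PILO lay below CTRL with little spread in either group (14.3 ± 1.51 against 27.7 ± 2.02 CPM, SD, n = 3), whereas PILO + KD reached from below PILO to the lower edge of CTRL (16.8 ± 10.1 CPM). PILO + KD replicate 1, with 134 counts, was the lowest of all 9 libraries, and PILO + KD replicate 2, with 512, lay at the lower edge of CTRL. The fitted log2 fold change was −0.96 ± 0.39 (SE) in PILO vs CTRL, −0.73 ± 0.39 in PILO + KD vs CTRL and 0.23 ± 0.39 in PILO + KD vs PILO. Without PILO + KD replicate 1 the last 2 became −0.31 and 0.65, and without PILO + KD replicate 2 they became −1.18 and −0.23, so that for Gabrd single libraries set the size and, against PILO, the sign. Each SE draws on the spread within all 3 groups, PILO + KD included. Fitted on the 6 libraries of PILO and CTRL alone, the PILO vs CTRL value of Gabrd was −0.96 ± 0.18.

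Kcna1 and Kcna2 encode alpha subunits of the Shaker family of potassium channels, which sit in axons and near nodes and limit repetitive firing. Kcna1 (ENSRNOT00000026731) stood at 21.7, 26.1 and 28.0 CPM in CTRL, at 15.2, 13.1 and 6.43 CPM in PILO, and at 20.0, 23.6 and 17.4 CPM in PILO + KD. Every PILO library lay below every library of the other groups, and PILO + KD overlapped with CTRL. For Kcna1 the log2 fold change was −1.12 ± 0.28 in PILO vs CTRL, −0.31 ± 0.27 in PILO + KD vs CTRL and 0.81 ± 0.28 in PILO + KD vs PILO. Kcna2 (ENSRNOT00000050149) stood at 8.64, 12.2 and 9.02 CPM in CTRL, at 6.52, 5.90 and 2.40 CPM in PILO, and at 6.48, 5.58 and 4.70 CPM in PILO + KD. Here PILO + KD lay below CTRL without overlap and within the span of PILO, unlike Kcna1. For Kcna2 the log2 fold change was −0.999 ± 0.33 in PILO vs CTRL, −0.82 ± 0.33 in PILO + KD vs CTRL and 0.18 ± 0.33 in PILO + KD vs PILO. Without PILO replicate 3 the last of these was −0.14 ± 0.24. Whether Kcna1 and Kcna2 differ in their response to the diet was not tested.

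Scn8a encodes the alpha subunit of a sodium channel gathered at the axon initial segment, where action potentials start. In contrast to the potassium channels it drives firing, and loss and gain of its function both cause disease. It (ENSRNOT00000008160) stood at 62.9, 76.3 and 89.8 CPM in CTRL, at 48.3, 48.3 and 15.3 CPM in PILO, and at 63.7, 67.3 and 62.9 CPM in PILO + KD. PILO + KD libraries differed little among themselves (64.6 ± 2.36 CPM), above all of PILO and inside the lower part of CTRL. Fitted over all libraries, the log2 fold change was −1.03 ± 0.34 in PILO vs CTRL, −0.24 ± 0.34 in PILO + KD vs CTRL and 0.79 ± 0.34 in PILO + KD vs PILO.

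Cacng2 encodes stargazin, which despite the calcium channel name carries AMPA receptors to the synapse and shapes their gating. It (ENSRNOT00000008414) stood at 21.2, 23.1 and 25.6 CPM in CTRL, at 14.6, 14.9 and 6.90 CPM in PILO, and at 19.4, 17.8 and 14.2 CPM in PILO + KD. PILO + KD lay below CTRL without overlap, and its lowest library, replicate 3, fell among PILO. Its log2 fold change was −0.94 ± 0.27 in PILO vs CTRL, −0.44 ± 0.27 in PILO + KD vs CTRL and 0.50 ± 0.27 in PILO + KD vs PILO.

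Atp2a2 encodes the pump that returns calcium to the endoplasmic reticulum, and Gpr56 an adhesion receptor needed for the layering of the cortex and the growth of the oligodendrocyte lineage. Atp2a2 (ENSRNOT00000067047) stood at 297, 329 and 357 CPM in CTRL, at 215, 214 and 66.9 CPM in PILO, and at 334, 279 and 233 CPM in PILO + KD. All PILO + KD libraries lay above all PILO libraries, and replicate 1 lay within CTRL. Its log2 fold change was −0.99 ± 0.35 in PILO vs CTRL, −0.22 ± 0.35 in PILO + KD vs CTRL and 0.77 ± 0.35 in PILO + KD vs PILO. Gpr56 (ENSRNOT00000020921) stood at 104, 123 and 143 CPM in CTRL, at 73.1, 87.1 and 50.7 CPM in PILO, and at 129, 103 and 79.7 CPM in PILO + KD. PILO + KD reached from within PILO to within CTRL and overlapped both. For Gpr56 the log2 fold change was −0.81 ± 0.24 in PILO vs CTRL, −0.25 ± 0.24 in PILO + KD vs CTRL and 0.57 ± 0.24 in PILO + KD vs PILO, the smallest difference of the 9 genes between PILO and CTRL.

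Ndufa2 and Tgif1 were the 2 genes higher in PILO than in CTRL. Ndufa2 encodes an accessory subunit of complex I, which feeds electrons into the respiratory chain. It (ENSRNOT00000023811) stood at 75.1, 64.2 and 45.0 CPM in CTRL, at 93.7, 87.8 and 156 CPM in PILO, and at 65.7, 71.5 and 79.7 CPM in PILO + KD. PILO lay above all other libraries, and PILO + KD below all of PILO. The log2 fold change was 0.87 ± 0.25 in PILO vs CTRL, 0.23 ± 0.25 in PILO + KD vs CTRL and −0.64 ± 0.25 in PILO + KD vs PILO. Tgif1 encodes a homeobox repressor that restrains transforming growth factor beta and retinoid signalling. It (ENSRNOT00000021534) was scarce, with 16, 19 and 21 counts in CTRL, 36, 71 and 55 in PILO, and 40, 17 and 25 in PILO + KD. At such depth counting error matters: the exact 95% Poisson interval was 9.14 to 26.0 for 16 counts and 55.4 to 89.6 for 71 counts. On the CPM scale Tgif1 stood at 0.773, 1.27 and 0.893 in CTRL, at 1.99, 2.87 and 3.21 in PILO, and at 1.72, 0.847 and 2.35 in PILO + KD. PILO lay above CTRL without overlap, and PILO + KD overlapped both. For Tgif1 the log2 fold change was 1.47 ± 0.40 in PILO vs CTRL, 0.72 ± 0.41 in PILO + KD vs CTRL and −0.75 ± 0.39 in PILO + KD vs PILO. RefSeq lists pseudogenes of Ndufa2 and of Tgif1, and the counting rule for shared reads was not given in the sources used here, so the levels of both are uncertain.

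**Figure D1:**
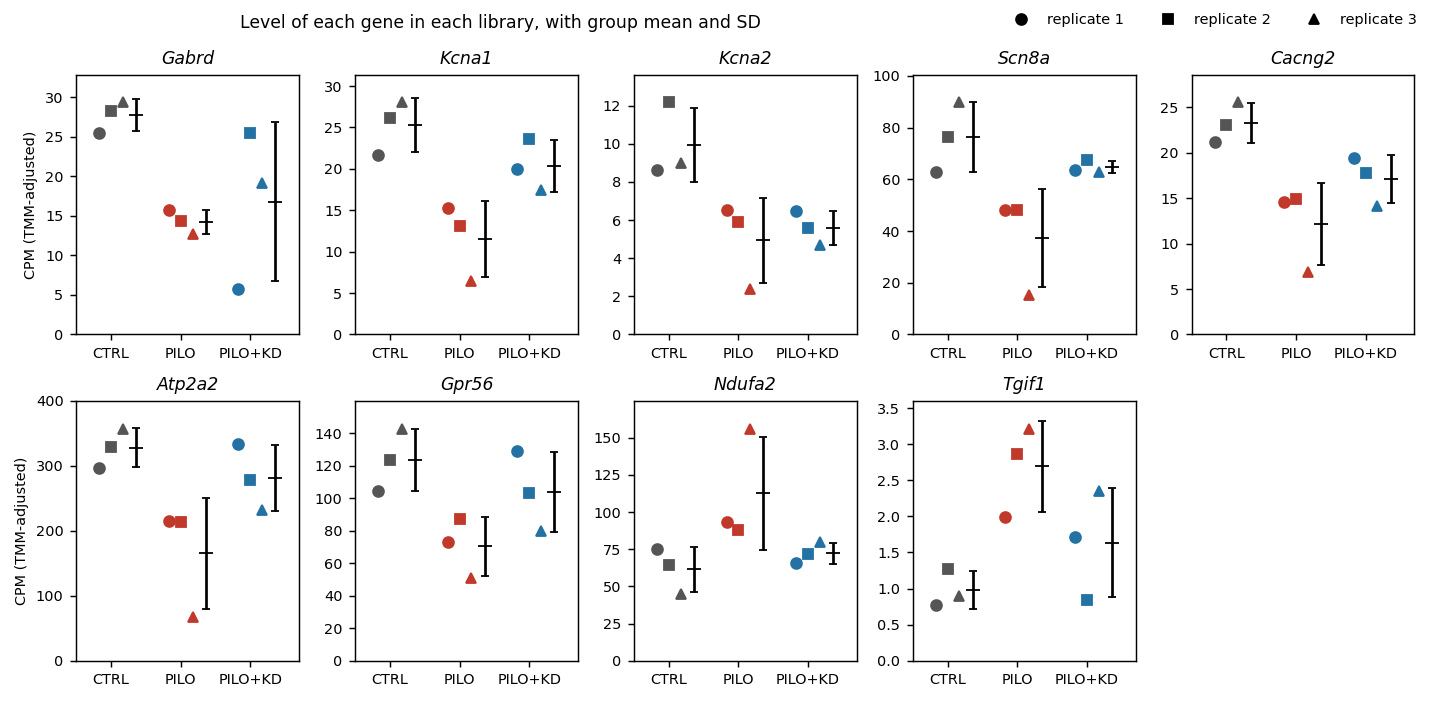
Each panel plots 1 gene's CPM (vertical axis, linear from 0) in the 3 libraries of each group, with circles, squares and triangles for replicates 1, 2 and 3 and a line for the group mean ± SD. For Scn8a and Atp2a2 the triangle of PILO replicate 3 lies far below the other 2 PILO libraries.

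PILO replicate 3 and CTRL replicate 3 held the extreme values of most genes. Of the 7 genes lower in PILO, 6 had their lowest level of all 9 libraries there, Gabrd being the exception, and both Ndufa2 and Tgif1 had their highest. Among all transcripts tested, 32.5% had their lowest and 31.3% their highest level in that library. CTRL replicate 3 held the opposite extreme for 7 of the 9 genes: the highest level of Gabrd, Kcna1, Scn8a, Cacng2, Atp2a2 and Gpr56, beside 18.6% of all transcripts, and the lowest of Ndufa2, beside 19.2%. Relative to the mean of PILO replicates 1 and 2, the level in PILO replicate 3 was 0.312 for Atp2a2, 0.316 for Scn8a, 0.386 for Kcna2, 0.454 for Kcna1 and 0.468 for Cacng2. Gpr56 (0.634) and Gabrd (0.843) lay closer, and Ndufa2 (1.72) and Tgif1 (1.32) lay above. PILO replicates 1 and 2 alone stood at 54.3% (Gabrd) to 65.5% (Atp2a2) of the CTRL mean for the 7 lower genes, at 148% for Ndufa2 and at 248% for Tgif1. In PILO replicate 3 the same 7 genes ran from 20.0% (Scn8a) to 45.8% (Gabrd) of the CTRL mean. The part that the composition of PILO replicate 3 or CTRL replicate 3 has in these values was not tested beyond leaving each out.

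**Figure D2:**
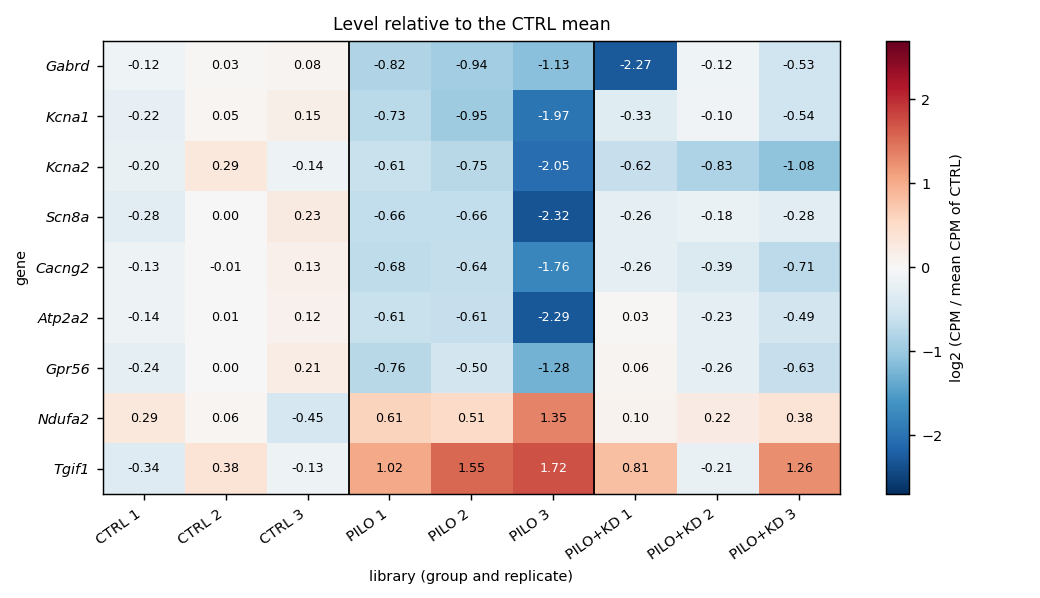
Each cell gives the log2 ratio of 1 gene in 1 library to the CTRL mean of that gene (colour scale centred on 0). The column of PILO replicate 3 is the most extreme for 6 of the 7 lower genes, and Gabrd is lowest in PILO + KD replicate 1.

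For PILO vs CTRL, which chose the genes, the absolute log2 fold change ran from 0.81 (Gpr56) to 1.47 (Tgif1) with a median of 0.99, beside a median of 0.33 over all transcripts tested. None of the 9 passed an adjusted p of 0.05 in edgeR's quasi-likelihood test (adjusted p 0.122 to 0.228), where 0.13% of all transcripts passed. All 9 had an unadjusted p below 0.05 in that test, beside 18.8% of all transcripts. All 9 showed no overlap between the groups, beside 27.4% of all transcripts, and nothing is read from these counts because the contrast selected the genes. At an adjusted p of 0.05 the edgeR exact test called 4 of the 9, beside 3.08% of all transcripts. DESeq2 called 5, beside 3.42%, and limma with library quality weights called 8, beside 8.43%. That limma fit gave smaller differences, with a median absolute log2 fold change of 0.66 (Scn8a −0.63, Atp2a2 −0.62 and Ndufa2 0.53). Without both PILO replicate 3 and PILO + KD replicate 2 the quasi-likelihood test called 2, beside 1.73%, so that calls were more frequent in these settings among all transcripts too. Without PILO replicate 3 each gene kept its direction and the median absolute log2 fold change was 0.66 (0.56 for Ndufa2 to 1.33 for Tgif1). Scn8a was then −0.66, Atp2a2 −0.61 and Ndufa2 0.56, each more than 1.5 times closer to 0 than with all libraries.

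PILO + KD vs CTRL asks how far the 9 genes stood from healthy rats after status epilepticus and the ketogenic diet. The CTRL libraries are those that the choice of genes used, and they serve both contrasts. The 7 genes lower in PILO had negative values (−0.22 for Atp2a2 to −0.82 for Kcna2) and Ndufa2 and Tgif1 positive ones. The median over the 9 was −0.25, beside 0.01 over all transcripts, and the median absolute value was 0.31, beside 0.16. The quasi-likelihood test called none of the 9 (adjusted p 0.9999 for each) and 0% of all transcripts. Kcna2 alone had an unadjusted p below 0.05 (edgeR, 0.0269), beside 3.6% of all transcripts. That count was 0 without CTRL replicate 2 (2.64% of all transcripts) and 0 without PILO + KD replicate 3 (2.77%). It was 2 without PILO replicate 3 (Kcna2 and Cacng2, beside 5.85%) and 2 without PILO + KD replicate 2 (Gabrd and Tgif1 in place of Kcna2, beside 5.95%). PILO replicate 3 is not in this contrast, but the SE draws on all groups. Without it Cacng2 stayed at −0.44, and its SE went from 0.27 to 0.16. After adjustment the exact test called none of the 9 but 0.166% of all transcripts, DESeq2 none but 0.126%, and limma none but 0.0359%. Without both PILO replicate 3 and PILO + KD replicate 2 the quasi-likelihood test called none of the 9 but 0.737% of all transcripts. In that setting 5 genes had an unadjusted p below 0.05, beside 2731 of 22251 transcripts. The same count was 3 in limma with library quality weights (1972 of 22283). In the quasi-likelihood test it was 2 on the 6 libraries of the contrast alone (1106 of 22305) and 0 with scaling by library totals only (744 of 22283). Groups did not overlap for Kcna2 and Cacng2, 2 of 9, beside 9.83% of all transcripts. Fewer libraries overlap less by construction. The count was 6 of 9 without CTRL replicate 1, beside 18.3% of all transcripts, 5 without PILO + KD replicate 2, beside 27.6%, and 4 without PILO + KD replicate 1, beside 19.7%. Without both PILO replicate 3 and PILO + KD replicate 2 it was 5, beside 27.4%. As a share of the CTRL mean, PILO + KD stood at 56.2% for Kcna2, 60.7% for Gabrd and 73.5% for Cacng2, at 80.5% to 86.0% for Kcna1, Gpr56, Scn8a and Atp2a2, at 118% for Ndufa2 and at 167% for Tgif1. On flow cell 94 alone, without PILO + KD replicate 3, the median was −0.21. Leaving out CTRL replicate 3 gave a median of −0.15, and leaving out CTRL replicate 1 gave −0.35.

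Single libraries moved several of these small differences by more than 1.5 times. Without CTRL replicate 3, Scn8a was −0.11, Gpr56 −0.13 and Ndufa2 0.05, and without CTRL replicate 1 Ndufa2 was 0.42. Without PILO + KD replicate 3, Gpr56 was −0.09, Atp2a2 −0.10 and Tgif1 0.41. Without PILO + KD replicate 1, Gpr56 was −0.43 and Atp2a2 −0.36. Kcna1, Kcna2 and Cacng2 moved by less than that whichever single library was left out.

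PILO + KD vs PILO asks whether the genes differed by diet among rats that had received pilocarpine. It shares the PILO libraries with the contrast that chose the genes, so its values are not independent of that choice. The 7 lower genes had positive values (0.18 for Kcna2 to 0.81 for Kcna1), Ndufa2 and Tgif1 negative ones. The median absolute log2 fold change was 0.64, beside 0.26 over all transcripts. The quasi-likelihood test called none of the 9 (adjusted p 0.624 to 0.846) and 0% of all transcripts. After adjustment the exact test called none of the 9 but 0.121% of all transcripts, DESeq2 none but 0.107%, and limma none and 0%, as did the quasi-likelihood test without both PILO replicate 3 and PILO + KD replicate 2. Unadjusted p-values of edgeR were below 0.05 for 5 genes (Kcna1, Scn8a, Atp2a2, Gpr56 and Ndufa2), the smallest being 0.0129 for Kcna1, beside 7.19% of all transcripts. The count fell to 0 without PILO + KD replicate 2 (6.83% of all transcripts), to 2 without PILO + KD replicate 1 (4.17%) or CTRL replicate 2 (5.39%), and to 3 without PILO replicate 3 (3.57%). Groups did not overlap for 4 of 9 (Kcna1, Scn8a and Atp2a2 higher in PILO + KD, Ndufa2 lower), beside 12.2% of all transcripts. Without PILO + KD replicate 3 it was 7 of 9, beside 22.6% of all transcripts for the same 5 libraries.

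The difference by diet was smaller without PILO replicate 3 and in limma with library quality weights. In limma the signed median over the 9 was 0.22 (Kcna1 0.43, Tgif1 −0.37), and the median absolute value was 0.37. Without PILO replicate 3 the signed median was also 0.22, in place of 0.50, and the median absolute value was 0.38, in place of 0.64. Kcna1 then became 0.53 ± 0.19, Scn8a 0.42 ± 0.17, Atp2a2 0.39 ± 0.17 and Cacng2 0.22 ± 0.18. Ndufa2 became −0.33 ± 0.19 and Tgif1 −0.62 ± 0.41. Without PILO + KD replicate 2, whose Gfap level was near CTRL, the signed median was 0.46, and Tgif1 was −0.44. Without PILO + KD replicate 3, from the other flow cell, the signed median was 0.61.

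**Figure D3:**
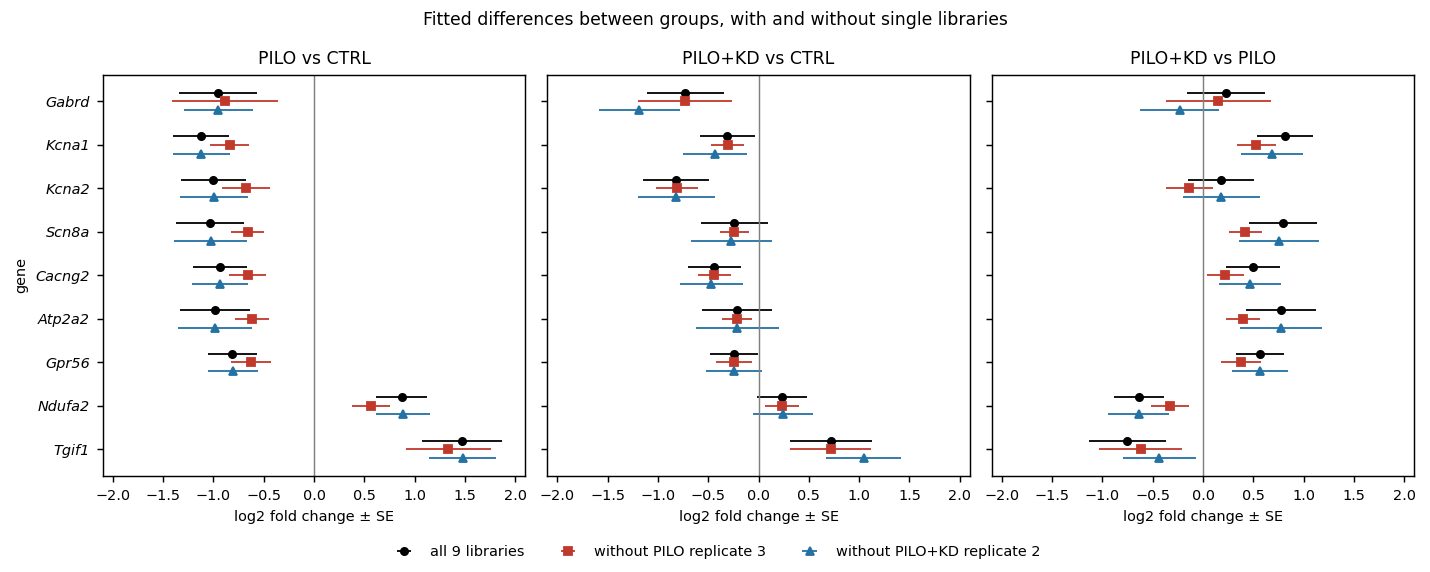
The 3 panels plot the fitted log2 fold change ± SE of each gene in the 3 contrasts, from all 9 libraries (circles), without PILO replicate 3 (squares) and without PILO + KD replicate 2 (triangles). In PILO vs CTRL no point changes side, and in PILO + KD vs PILO Gabrd and Kcna2 cross 0.

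The genes were also compared by the shape of their levels over the 9 libraries (Pearson's r of log2 CPM), as a description only: the points share libraries, group differences and the choice on PILO vs CTRL. The 21 pairs among the 7 lower genes had r from 0.22 to 0.981 with a median of 0.886. Within groups, after the group means were removed, the median was 0.885 (−0.33 to 0.991), and without PILO replicate 3 it was 0.809 (0.06 to 0.965). Scn8a and Atp2a2 were the closest pair (r = 0.981). Gabrd did not share this pattern, with r of 0.22 (Gpr56) to 0.46 (Kcna1). Ndufa2 ran opposite to the 6 lower genes other than Gabrd (r from −0.95 to −0.81).

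Among the 14 epilepsy-related and 10 epigenetic genes of the study used here, the closest in pattern to Kcna1 and to Cacng2 was Ncoa1, a nuclear receptor coactivator (r = 0.982 and 0.973). For Kcna2 it was Cacng2 (0.935). For Gpr56 it was Eif2c1, an Argonaute protein of small RNA pathways (0.969). Ndufa2 and Tgif1 both ran closest to Apobec1, a cytidine deaminase (0.855 and 0.881), and Gabrd to Ezh1, a histone methyltransferase (0.718). These partners come from a list also chosen on PILO vs CTRL. Gabrd ran opposite to Gfap (r = −0.81): PILO + KD replicate 1, its lowest library, had 2632 CPM of Gfap, and PILO + KD replicate 2, at the lower edge of CTRL for Gabrd, had 834 CPM. Tgif1 ran with Gfap (0.77). The part of astrocyte RNA in either gene's level was not tested.

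**Figure D4:**
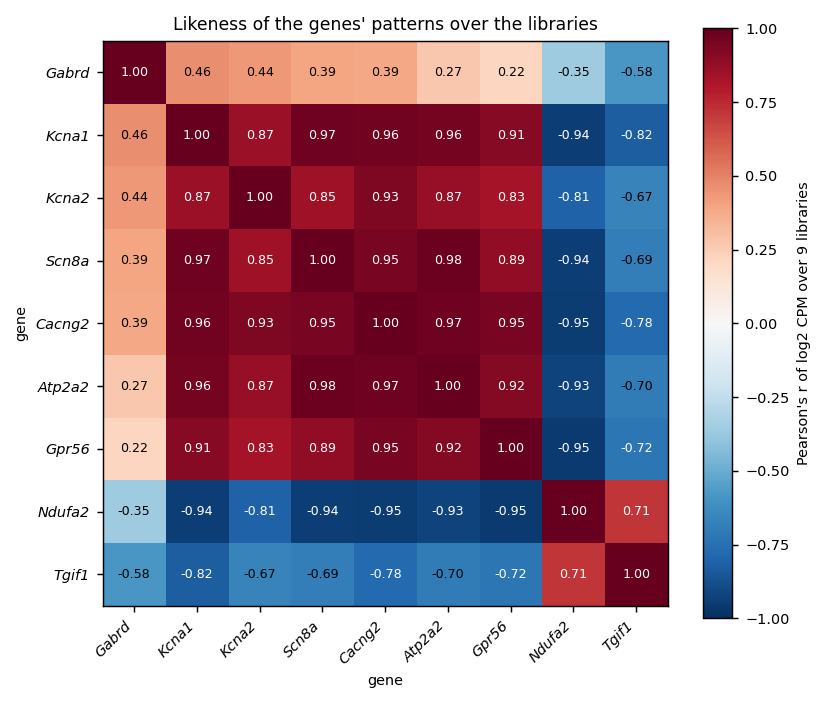
Each cell gives Pearson's r of log2 CPM over the 9 libraries for a pair of genes (colour scale from −1 to 1). The block from Kcna1 to Gpr56 is high throughout, Gabrd is weakly related to it, and Ndufa2 and Tgif1 run opposite.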

How the data were processed

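Per the labels, groups are treatment and diet, and replicates were numbered in accession order, which pairs nothing. The authors aligned single 36 bp reads to the rat build RN4 with BWA 0.5.9 and deposited raw counts per Ensembl 66 transcript, whose rules for shared reads and strand were not given in the sources used here. No 2 replicates agreed within counting error (chi-square over degrees of freedom 4.55 to 118), so each was kept as 1 animal.

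Transcripts with a total of at least 55 counts, the 30th centile used by the study, were kept (22283, 70.1%). All 9 libraries entered 1 fit with 3 group means (6 residual degrees of freedom) in edgeR 4.0.16 under R 4.3.3, with scaling by the trimmed mean of M-values (TMM) and the two-sided robust quasi-likelihood F-test, which was tested on simulated data. Adjusted p-values are Benjamini-Hochberg values over the 22283 transcripts, called below 0.05. CPM were logged with a prior count of 2, and SE is the absolute log2 fold change over the square root of F. Alternatives were the edgeR exact test, DESeq2 1.42.0, limma 3.58.1, other scalings, filters and samples, and leaving out each library. Leaving out PILO replicate 3 and PILO + KD replicate 2 together was added after seeing the data.

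All members described are named, and 1 further gene is not reported here. The members and lists were chosen with earlier results of these data known. None of the file's identifiers (0) matched the RefSeq table, so lists of other pathway genes and cell type markers were not run, and no RN4 coordinates are given. Intervals of counts cover counting error only.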

Additional observations from a re-analysis of the deposited data

How the results depend on the processing

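Under 18 alternatives, 17 planned and 1 added after seeing the data, no PILO vs CTRL value of the 9 genes changed sign. The number called there was 0 in the quasi-likelihood test with all its scalings, filters and single libraries left out. It was 4 in the edgeR exact test (3.08% of all transcripts), 5 in DESeq2 (3.42%), 8 in limma with library quality weights (8.43%), and 2 without both PILO replicate 3 and PILO + KD replicate 2 (1.73%), against 0.13% of all transcripts in the quasi-likelihood test. In the 2 contrasts with PILO + KD, 0 of 324 gene results were called (at most 0.737% of all transcripts, in PILO + KD vs CTRL without both libraries) and 6 reversed, all in PILO + KD vs PILO. Gabrd was −0.28 in limma, −0.33 without both libraries, and −0.23 to 0.65 when single libraries were left out (−0.23 without PILO + KD replicate 2). Kcna2 was −0.16 in limma, −0.13 without both libraries, and −0.14 to 0.42 when single libraries were left out (−0.14 without PILO replicate 3). The cause was not tested. The number of genes without overlap was 2 to 6 (6 without CTRL replicate 1, beside 18.3% of all transcripts) in PILO + KD vs CTRL and 4 to 7 (7 without PILO + KD replicate 3, beside 22.6%) in PILO + KD vs PILO when single libraries were left out, since fewer libraries overlap less. Without both libraries it was 5 in PILO + KD vs CTRL, beside 27.4%. No paired analysis was possible because the labels give no replicate numbers. Depth limits Tgif1 most, at 16 to 71 counts per library.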
